A study of Mus musculus with 8 samples.

Results

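The cells described here were picked from the mouse organ of Corti by 7 genes that mark Deiters' cells (DCs) and pillar cells (PCs), the supporting cells (SCs) around the outer hair cells: Rbp7, Cep41, Fabp3, Ceacam16, Tectb, Gdf6 and Parm1. A barcode was kept if it held at least 500 detected genes and under 25% of its unique molecular identifiers (UMIs) from mitochondrial genes. It was then picked if at least 3 of the 7 markers had a UMI, if Pou4f3 (a hair cell transcription factor) and Ptprc (the pan-leukocyte gene for CD45) had none, and if Ocm (an outer hair cell calcium-binding protein) had at most 2. This gave 422 cells of 6023 kept barcodes and 8061 barcodes in all. Because the markers were read from the same counts, their levels and the contrast between these cells and the rest describe the choice and were not tested.

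DCs hold outer hair cells from below and send a stiff process up between them, and PCs form the walls of the tunnel of Corti with dense microtubule bundles. Both are coupled by connexin gap junctions, which let potassium flow away from hair cells, and both express Fgfr3 in the mature cochlea. During development, Notch signalling from hair cells, read out by the HES and HEY repressors, keeps SCs from taking the hair cell fate, and Atoh1, a basic helix-loop-helix transcription factor, drives that fate. SCs also secrete proteins of the tectorial membrane, the gel of collagens and tectorins above the hair cells.

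The study asked what happens when Atoh1 is switched on in SCs after hearing has begun to mature. All mice, controls included, carried an inducible Cre under Fgfr3 (Fgfr3iCre+), an HA-tagged Atoh1 transgene that waits for Cre (Atoh1-HA+), a green reporter of a hair cell gene (Chrna9-GFP+) and a red Cre reporter (Rosa26-CAG-loxP-stop-loxP-tdTomato+). Tamoxifen thus turned on tagged Atoh1 and tdTomato in any cell in which Fgfr3 drove the Cre. Tamoxifen was given at postnatal day (P) 12 and 13, and cells were taken at P26 (Coch + Tmx P26, 3 libraries) or P33 (Coch + Tmx P33, 2 libraries); uninduced mice gave Coch P12 (2 libraries) and Coch P33 (1 library). The deposited 10x Genomics counts held 3972800 to 13423524 UMIs per library, no pair of libraries shared more than 3 barcodes, and no picked cell was among those shared. The labels do not state whether replicates came from separate animals. The paper calls them biological, but the number it gives per group is not that of the labels, so p-values measure the spread between these libraries, which may be technical.

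The libraries of Coch + Tmx P26 gave 28, 24 and 60 picked cells, those of Coch + Tmx P33 36 and 51, those of Coch P12 77 and 58, and Coch P33 gave 88. As a share of kept cells (95% exact binomial interval, which covers counting error only) this was 3.50% (2.34 to 5.01), 4.22% (2.72 to 6.21) and 10.2% (7.85 to 12.9) in Coch + Tmx P26. It was 7.17% (5.07 to 9.79) and 7.11% (5.34 to 9.25) in Coch + Tmx P33, 5.57% (4.42 to 6.91) and 6.58% (5.04 to 8.43) in Coch P12, and 15.1% (12.3 to 18.3) in Coch P33. Coch P33 and replicate 3 of Coch + Tmx P26 stood above the other 6 libraries. The picked cells were deep, with a median of 14791.5 UMIs, against 3538 to 8794 for all kept cells of a library. When each cell was thinned to 2000 UMIs before the rule was applied, 0.624% to 6.10% of cells passed, and the same 2 libraries stood highest, at 4.65% and 6.10%. Since a deeper cell shows more markers, these shares count barcodes that pass the rule and not the cells in the tissue.

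**Figure D1:**
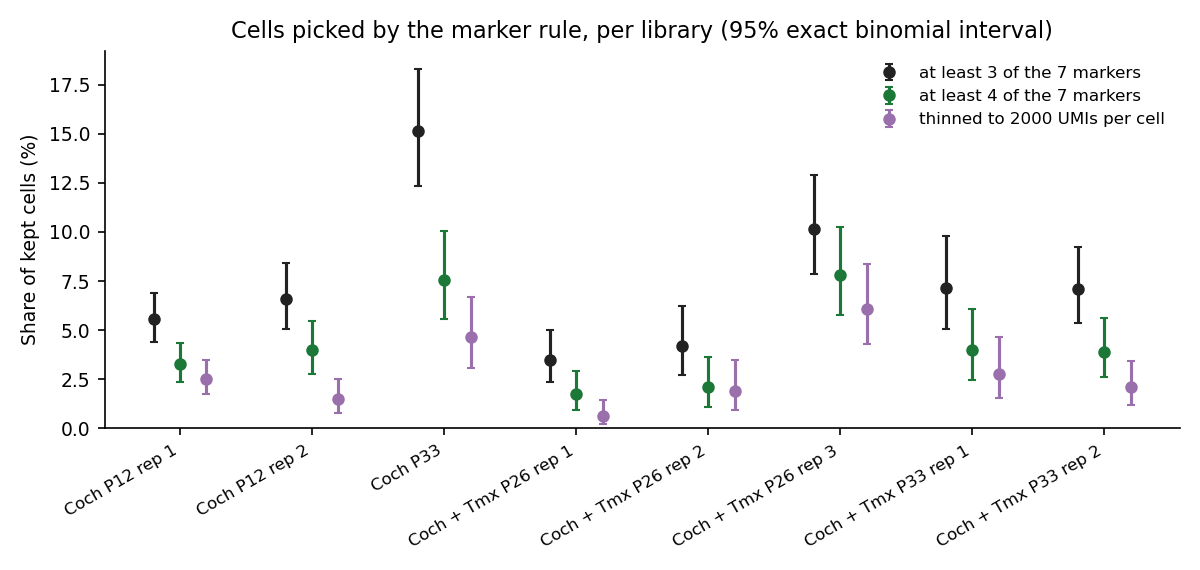
The share of kept cells (%, y axis) that passed the marker rule in each library (x axis), with at least 3 markers, with at least 4 markers, and with at least 3 markers after thinning to 2000 UMIs per cell; points are shares and bars 95% exact binomial intervals. Coch P33 and Coch + Tmx P26 rep 3 lie highest under all 3 readings.

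The threshold of 3 markers fell in a continuous range: 178 of the 422 cells held exactly 3 markers, 104 held 4, 140 held 5 or more and 33 held all 7, while 432 kept cells that passed the exclusions held exactly 2. Levels are given as UMIs per 1000000 UMIs (CPM) in the summed counts of the cells named. Among the 12 SC markers that the rule did not use, Fgfr3 stood at 49.0, 66.4, 205, 228 and 200 CPM in cells with 3, 4, 5, 6 and 7 markers. Jag1, the Notch ligand of SCs, stood at 35.7, 55.3, 178, 161 and 246 CPM. Rorb, a nuclear receptor gene that is not among the 12, stood at 52.6, 100, 291, 489 and 532 CPM. Fgfr3, Jag1 and Rorb were thus low in the cells just inside the threshold and higher from 5 markers on, but not all SC markers were. The 12 summed to 2303, 2325, 4255, 3404 and 2751 CPM, and Prox1, a transcription factor gene of DCs and PCs, stood at 39.3, 50.0, 16.3, 19.4 and 58.2 CPM.

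Snap25, Epyc and Vmo1, genes of other cochlear cells, were lower with 5 or more markers than with 3 or 4. Snap25, a synaptic gene of neurons, stood at 680, 836, 157, 2.43 and 19.4 CPM in cells with 3, 4, 5, 6 and 7 markers. Epyc, a proteoglycan gene of the nonsensory epithelium next to the organ of Corti, stood at 2520, 2121, 971, 274 and 69.8 CPM. Vmo1, another gene of the list of nonsensory markers, stood at 786, 300, 87.8, 53.4 and 38.8 CPM.

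The summed level of 7 neuron and Schwann cell genes was 522 CPM in the 140 cells with 5 or more markers and 4177 CPM in the 282 with 3 or 4. For 8 stromal genes the sums were 599 and 2186 CPM, although they went back up from 389 and 436 CPM with 5 and 6 markers to 1234 CPM with 7. For 4 hemoglobin genes they were 6551 and 19335 CPM, with 4948, 8945 and 5592 CPM at 5, 6 and 7 markers. For 6 nonsensory epithelial genes they were 1359 and 3329 CPM. For 29 hair cell genes, which include Pou4f3 and Ocm, they were 993 and 2711 CPM. At least 3 of the 29 were found in 70.7% and 60.6% of cells, which goes the other way. For the 12 SC markers the sums were 3602 and 2312 CPM. In the cells with 3 or 4 markers the hair cell and nonsensory sums thus both exceeded the SC sum. Fgfr3, Jag1, Rorb and the sum of the 12 SC markers thus bore out the label better in the cells with 5 or more markers than in the others. Prox1 at 5 and 6 markers went the other way. So did the PC genes Ngfr and Npy, given below, and they did not bear out the PC part of the label. All 422 are therefore called 7-marker cells below. Endothelial genes were at or near 0, at 2.69 to 8.68 CPM per library for 2 genes, and macrophage genes were at 45.5 to 181 CPM for 9.

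**Figure D2:**
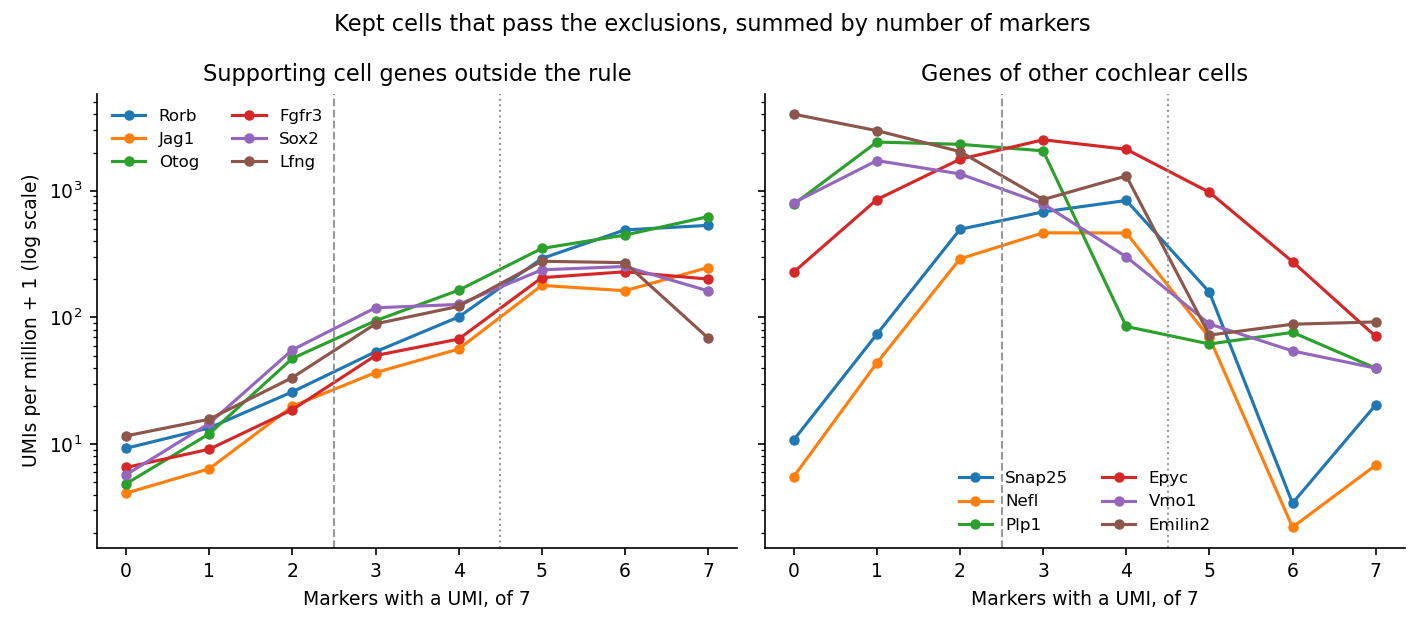
Level in UMIs per 1000000 plus 1 (log y axis) of SC genes outside the rule (left) and of genes of other cochlear cells (right) against the number of the 7 markers with a UMI (x axis), summed over kept cells that pass the exclusions; the dashed line is the rule's threshold and the dotted line separates cells with 5 or more markers. SC genes such as Rorb climb to 532 CPM and neuronal genes such as Snap25 drop to 19.4 CPM in cells with all 7 markers.

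A UMI of Fgfr3, the gene whose promoter drives the Cre, was found in 43.1% of the 7-marker cells, in 72.9% of those with 5 or more markers and in 28.4% of those with 3 or 4. Kept cells with a Ptprc UMI, which are leukocytes and should lack the gene, showed it in 3.43% at a median of 6582 UMIs per cell. The 6 PC genes summed to 1941 CPM in the cells with 5 or more markers and to 1659 CPM in the others, mostly from the small heat shock protein gene Cryab, at 1464 and 1007 CPM. Ngfr, the p75 receptor of PCs in the young organ, was at 1.77 and 21.6 CPM and Npy at 0.442 and 5.64 CPM. Both were thus near 0 in the cells with 5 or more markers, unlike Cryab and the sum of the list.

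The 20 genes outside the rule with the largest ratio of level, as CPM plus 1, to all other kept cells included known SC and inner ear genes. Otog, which encodes the tectorial membrane glycoprotein otogelin, averaged 280 CPM per library, a ratio of 13.4, and Jag1 averaged 101 against 8.59 CPM, a ratio of 10.7. Wnt7a, a Wnt ligand, Hey2, a Notch target repressor, and Slitrk6, a neurite guidance receptor, were also among the 20, at ratios of 11.4, 9.29 and 13.3. Otol1, which encodes otolin, was there too at 9.20, and it is also on the list of nonsensory epithelial markers. The highest levels among genes outside the rule were those of Malat1, S100a1, Fbxo2, Skp1a, S100a13, Fth1, Dbi, Sparc, Eef1a1 and Ftl1. Of these, S100a1, a calcium-binding protein gene, averaged 18639 CPM against 3521 CPM in other kept cells, and Fbxo2, a ubiquitin ligase subunit gene known for high levels in the inner ear, 8277 against 1809 CPM, whereas Malat1, a nuclear RNA, was at 32181 against 37761 CPM. These ratios follow from how the cells were picked and carry no test.

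The rule's own markers varied between libraries. Tectb, which encodes β-tectorin of the tectorial membrane, was at 1410 and 370 CPM in Coch P12, at 60.3 CPM in Coch P33, at 110, 7.73 and 227 CPM in Coch + Tmx P26 and at 24.2 and 44.4 CPM in Coch + Tmx P33. It was lower in every later library than in either Coch P12 library, and it had a UMI in 61.0% and 48.3% of the 7-marker cells of Coch P12 but in 3.92% to 32.1% of those of the later libraries. Fabp3, a fatty acid-binding protein gene, ran the other way, at 626 and 365 CPM in Coch P12 and at 821 to 1684 CPM in the 6 later libraries. Ceacam16, another tectorial membrane gene, ranged from 172 to 2692 CPM with overlap between ages, as did Rbp7 (135 to 858 CPM), Cep41 (56.7 to 779 CPM), Gdf6 (34.4 to 196 CPM) and Parm1 (106 to 626 CPM). The marker that let a cell in thus differed between Coch P12 and the later libraries, so their picked cells need not be the same mixture.

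Counts were summed over the 7-marker cells of each library and tested with edgeR's quasi-likelihood test on 10859 genes in 1 fit of all 8 libraries, with Benjamini-Hochberg adjustment over all of them; the biological coefficient of variation was 39.0%. In such sums, fewer cells of a type and less RNA per cell cannot be told apart. Outside the rule's own genes 10851 genes were tested, and a gene is called where its adjusted p is under 0.05.

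At the later ages, collagens and other secreted matrix genes were lower in the 7-marker cells than at P12. Comparing the mean of the later groups with Coch P12, 19 genes fell (0.175% of those tested) and 1 rose, together 0.184%. All later libraries but Coch P33 were induced and neither Coch P12 library was, so this comparison cannot tell age from induction. Ordered by role, 6 of the 19 were collagens, and of these 5 belong to the tectorial membrane list. Mia, Npnt, Chadl, Wisp1 and Cpz encode other secreted or matrix proteins, Klk8 and Tmprss9 encode serine proteases, and Rsph1 encodes a subunit of the radial spokes of motile cilia.

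Col9a1, which encodes a chain of type IX collagen and lies on chromosome 1 from 24177589 to 24252738 (GRCm38.p6), was at 391 and 517 CPM in Coch P12. In the 6 later libraries it was at 8.17 CPM at the lowest, 27.0 at the median and 38.6 at the highest, so that every later library lay far below both P12 libraries. It fell by 4.59 on the log2 scale (SE 0.28, edgeR adjusted p = 0.0011).

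Col2a1, the type II collagen gene of cartilage and the tectorial membrane, on chromosome 15 from 97975602 to 98004724, was at 189 and 429 CPM in Coch P12 and at 0 to 10.8 CPM later (median 6.11), a log2 fold change of -5.54 (SE 0.60, edgeR adjusted p = 0.0175). Col11a1, a type XI collagen gene, was at 149 and 210 CPM and later at 5.38 to 28.7 CPM (median 16.3; log2 fold change -3.64, SE 0.37, edgeR adjusted p = 0.0175). Its partner gene Col11a2 was at 118 and 106 CPM and later at 9.70 to 69.5 CPM (log2 fold change -2.50, SE 0.35). Col9a3, another chain of type IX collagen, was at 250 and 243 CPM and later at 29.6 to 81.1 CPM (log2 fold change -2.53, SE 0.34), whereas Col9a2 was at 252 and 346 CPM and later at 49.5 to 126 CPM, without overlap, and was not called.

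Of the 10 tectorial membrane genes tested outside the rule, 5 fell by the test, 7 were lower in every later library than in both P12 libraries, and the median log2 fold change was -2.51. Over all genes tested 6.14% were lower and 2.47% higher without overlap, and the median was -0.03. Tecta, the gene of α-tectorin, had 7.43 and 13.7 CPM in Coch P12 and no UMI in the 6 later libraries. Otog went against this pattern, at 313 and 128 CPM in Coch P12 and at 91.4 to 536 CPM later, with overlap. The rule's markers Tectb and Ceacam16 are on the same list, and Tectb was found in a larger share of the picked cells of Coch P12. The part of this choice in the values of the list was not tested.

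Col9a1 and Col2a1 were also lower after P12 outside the 7-marker cells. In all other kept cells Col9a1 was at 392 and 493 CPM in Coch P12 and at 19.6 to 65.1 CPM later, and Col2a1 was at 714 and 819 CPM and later at 31.9 to 135 CPM. Stromal markers moved with the same contrast within the 7-marker cells: the sum of 8 such genes was 1729 and 4358 CPM in Coch P12 and 239 to 1403 CPM later. Of the 7 stromal genes that could be tested, edgeR called 0 and DESeq2 1. By edgeR 6 had an unadjusted p under 0.05, as did 8.25% of all genes tested. In every later library 3 of the 7 were lower than at P12, as were 6.14% of all genes tested. The median log2 fold change of the 7 was -2.30. The part of stromal genes in the collagen values was not tested. The 7 neuron and Schwann cell genes summed to 919 and 8403 CPM in Coch P12 and to 264 to 3164 CPM later, so here replicate 2 of Coch P12 stood apart. Col11a1 and Col15a1 were mostly outside the cells with 5 or more markers at P12: there Col11a1 was at 17.5 and 36.9 CPM and Col15a1 at 0 and 20.2 CPM, against 247 and 254 CPM and 43.5 and 61.3 CPM in the cells with 3 or 4 markers. Col9a1, by contrast, was at 429 and 299 CPM in the P12 cells with 5 or more markers and at 9.05 to 37.6 CPM in those of the later libraries, and Col9a3 at 328 and 252 CPM and then at 30.7 to 157 CPM.

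Among the secreted proteins, Mia, which encodes a small protein first known from melanoma and cartilage, was at 988 and 1123 CPM in Coch P12 and at 75.6 to 175 CPM later (median 110), a log2 fold change of -3.33 (SE 0.26, edgeR adjusted p = 0.0048). Npnt, the gene of nephronectin, an integrin ligand of basement membranes, fell from 118 and 145 CPM to 11.2 to 32.3 CPM. Chadl, a leucine-rich repeat protein gene related to chondroadherin, fell from 100 and 97.6 CPM to 14.3 to 35.4 CPM, and Wisp1, a gene of the CCN family of matrix signalling proteins, from 228 and 252 CPM to 14.9 to 50.2 CPM. In other kept cells at P12 Mia was at 192 and 214 CPM, Npnt at 32.4 and 38.6 CPM and Chadl at 19.1 and 31.7 CPM, all lower than in the 7-marker cells, while Wisp1 was at 318 and 268 CPM.

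The protease genes were low after P12. Klk8, the gene of neuropsin, was at 80.8 and 133 CPM in Coch P12 and at 0 to 9.56 CPM later (log2 fold change -5.57, SE 0.61, edgeR adjusted p = 0.0175), from 280 and 15 UMIs in all. Tmprss9 was at 110 and 133 CPM and then at 0 to 14.9 CPM (log2 fold change -4.73, SE 0.50). In other kept cells at P12 they were at 13.8 and 20.3 CPM and at 13.9 and 16.5 CPM.

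Genes with roles inside the cell also fell. Sapcd2, linked to spindle orientation and apical polarity, was at 144 and 52.2 CPM in Coch P12 and at 0 to 7.73 CPM later (log2 fold change -4.22, SE 0.58), and in the P12 cells with 5 or more markers it was at 206 and 198 CPM. Rsph1 was at 79.8 and 79.0 CPM and later at 1.43 to 24.2 CPM (log2 fold change -4.16, SE 0.50). In other kept cells Rsph1 was at 10.5 and 6.92 CPM at P12 and at 1.90 to 16.5 CPM later, so there the ages overlapped. Sh2d6, an adaptor protein gene, was at 39.9 and 37.1 CPM and later had 4 UMIs in 6 libraries, which makes its log2 fold change of -5.95 (SE 0.60) imprecise. The other 4 that fell were Col15a1, Flywch2, Nrep and Cdo1, the gene of cysteine dioxygenase, with log2 fold changes from -1.79 for Cdo1 to -4.14 for Col15a1. The names Npnt, Mia, Wisp1, Chadl, Flywch2, Nrep and Cdo1 lay outside the naming rule and were added after their values were seen.

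The single gene that rose was Lrp11, a gene of the LDL receptor-related family on chromosome 10 from 7589817 to 7624768. It was at 9.28 and 9.62 CPM in Coch P12 and at 41.1 to 72.6 CPM later (median 67.3), with all 6 later libraries above both P12 libraries. The log2 fold change was 2.70 (SE 0.32, edgeR adjusted p = 0.0250).

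The genes that define SCs did not pass this test. Hes1, a Notch target repressor, was at 131 and 128 CPM in Coch P12 and at 171 to 599 CPM later without overlap, but it was not called (log2 fold change 1.29, edgeR adjusted p = 0.315). Fgfr3 was at 76.1 and 40.5 CPM and then at 68.4 to 208 CPM (1.16, adjusted p = 0.529), and Sox2, a transcription factor gene that SCs keep into adulthood, at 190 and 88.6 CPM and then at 50.0 to 352 CPM (0.15, adjusted p = 0.955). The connexin genes Gjb2 and Gjb6 overlapped between ages, with log2 fold changes of -0.42 and 0.28. Of 19 tubulin and microtubule genes tested edgeR called 0 (4 at an unadjusted p under 0.05) and DESeq2 1. Of the 19, 3 were lower in every later library, as were 6.14% of all genes tested. Tuba1a and Tubb4b, picked after their values were seen, stood at 2525 and 1417 and at 735 and 756 CPM in Coch P12 and at 417 to 1022 and 208 to 344 CPM later. Of 13 genes for gap junctions, potassium and glutamate handling, 20 Notch pathway genes, 11 FGF receptor and response genes and 24 transcription factors, edgeR and DESeq2 both called 0, with 2, 3, 2 and 1 at an unadjusted p under 0.05 by edgeR. Of 14 hair cell genes 13 had a log2 fold change above 0, with a median of 1.84. Among these 14 edgeR called 0 (2 at an unadjusted p under 0.05) and DESeq2 2. Over all genes tested 8.25% had an unadjusted p under 0.05 by edgeR in this comparison.

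The count of 20 rested on single libraries. It was 1 without replicate 1 of Coch + Tmx P33 and 1 without replicate 2 of Coch P12, 2 without replicate 2 of Coch + Tmx P33, 7 and 13 without replicates 2 and 1 of Coch + Tmx P26, 12 without Coch P33 and 68 without replicate 3 of Coch + Tmx P26. Without replicate 1 of Coch P12 it was 19, of which 7 were among the 20. Leaving out both Coch P33 and that replicate 3, an alternative chosen after seeing the data, gave 130. Col9a1 was called in all 19 alternatives run and the collagen log2 fold changes stayed below 0 in each of them, from -1.88 for Col11a2 to -6.06 for Col2a1.

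**Figure D3:**
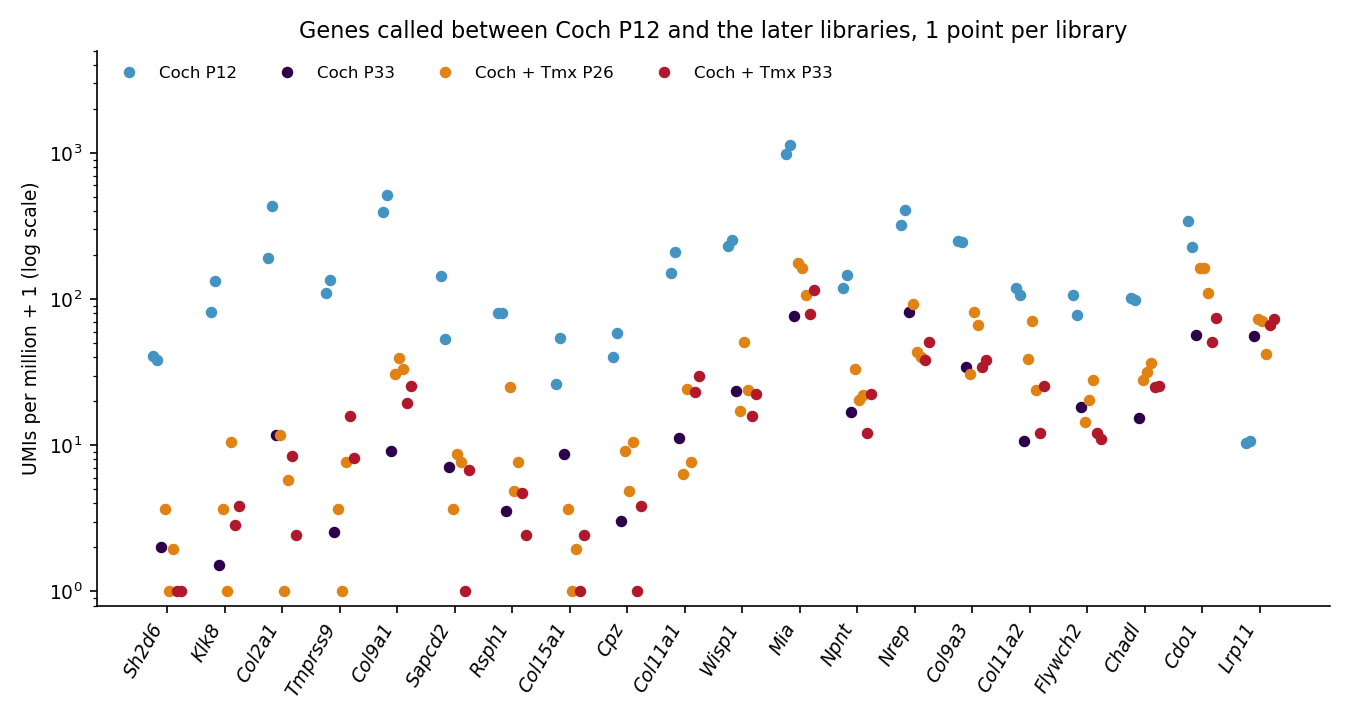
Level in UMIs per 1000000 plus 1 (log y axis) of the 20 genes called between Coch P12 and the later libraries (x axis, ordered by log2 fold change); each point is the sum over the 7-marker cells of 1 library. For 19 genes both P12 libraries lie above all 6 later libraries, as for Col9a1 at 391 and 517 CPM against at most 38.6 CPM, and for Lrp11 they lie below.

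Without tamoxifen, the same direction held for Col9a1, the 1 gene called (0.00922% of those tested) between Coch P33 and Coch P12. It was at 8.17 CPM in Coch P33, a log2 fold change of -5.71 (SE 0.53, edgeR adjusted p = 0.0341), and DESeq2 called 20. This comparison shares its P12 libraries with the one above, and its call was lost in 8 of 16 alternatives, at an adjusted p of up to 0.245, among them those that left out any single library but replicate 3 of Coch + Tmx P26. All 10 tectorial membrane genes tested had a log2 fold change below 0, with a median of -3.13 against -0.02 over all genes. Coch P33 is 1 library, assumed here to vary like the others, and its 7-marker cells held 38330 CPM of 4 hemoglobin genes, against 1276 to 13018 CPM in the other 7 libraries, and a Snap25 level of 1253 CPM.

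The gene that tamoxifen switches on was read in the 7-marker cells of every library. Atoh1, on chromosome 6 from 64729125 to 64731245, was at 482, 108 and 28.7 CPM in Coch + Tmx P26 and at 277 and 376 CPM in Coch + Tmx P33. In the uninduced libraries it was at 47.4 and 38.5 CPM in Coch P12 and at 29.1 CPM in Coch P33. Of the 5 induced libraries 4 lay above all 3 uninduced ones, and the remaining one, labelled Coch + Tmx P26 replicate 3, lay below them all, which goes against its label. The mean of log2(CPM + 1) was 7.45 ± 1.65 (SD, n = 5) in the induced and 5.27 ± 0.34 (SD, n = 3) in the uninduced libraries, a difference of 2.18 that did not pass a two-sided exact permutation test (p = 0.143, the smallest possible being 0.0357). Without that library the difference was 2.82 (exact permutation p = 0.0571, the smallest possible for 4 against 3). All induced libraries were taken at P26 or P33 and 2 of the 3 uninduced ones at P12, so this test cannot tell induction from age. The rule also left out cells with a Pou4f3 UMI. Of such kept cells 17 of 21, 4 of 7 and 1 of 4 held an Atoh1 UMI in Coch + Tmx P26, and 37 of 40 and 33 of 34 in Coch + Tmx P33. In Coch P12 13 of 36 and 6 of 20 did, and in Coch P33 1 of 7. These 3' counts do not separate the transgene from the gene of the mouse.

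Within a library the Atoh1 UMIs were spread unevenly. The 5 highest cells held from 36.8% of them in Coch P33 to 96.4% in replicate 2 of Coch + Tmx P26. In replicate 1 of Coch + Tmx P26 14 of 28 cells had a UMI and the highest cell held 36 of 179 UMIs. In replicate 2 these were 6 of 24 cells and 15 of 28 UMIs. In Coch + Tmx P33 26 of 36 and 29 of 51 cells had one, with highest cells of 27 of 149 and 57 of 262 UMIs. In replicate 3 of Coch + Tmx P26, whose level goes against its label, 12 of 60 cells had one and no cell had 5 or more. In the uninduced libraries 23 of 77, 19 of 58 and 30 of 88 cells had a UMI, and no cell held more than 8. Cells with more than 8 Atoh1 UMIs were thus seen only in the other 4 induced libraries.

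Hes5 set Coch + Tmx P33 apart from Coch + Tmx P26. It encodes a repressor that Notch activates in SCs, and lies on chromosome 4 from 154960626 to 154962372. It was at 195 and 139 CPM in Coch + Tmx P33 and at 8.07, 3.86 and 2.87 CPM in Coch + Tmx P26, from 105, 97, 3, 1 and 3 UMIs. In the uninduced libraries it was at 3.71 and 2.06 CPM in Coch P12 and at 2.04 CPM in Coch P33. The libraries of Coch + Tmx P33 stood far above the other 6, which lay close together. It was the 1 gene called between the induced ages, with a log2 fold change of 5.17 (SE 0.46, edgeR adjusted p = 0.0264), where 0.00922% of genes were called and DESeq2 called 7.

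The sites where the Notch factor RBPJ can bind DNA are shown because Hes5 is the called Notch target. The motif GTGGGAA, searched on both strands in the 250 bases before each start site in RefSeq (GRCm38.p6), occurred 2 times before Hes5, starting at positions -226 and -83. Of 32851 promoters 1779 (5.42%) held it at least once and 53 (0.161%) at least 2 times. Each occurrence is given with 10 bases on either side, from 154960687 to 154960713 and from 154960830 to 154960856 on chromosome 4, plus strand, with the motif in capitals. The gene record begins before the start site used, so both lie within its outer bounds.
Hes5 site 1: ggcgagcgcgTTCCCACagcccggaca
Hes5 site 2: gccgccgagtGTGGGAAcggccgcggc
The same window before Nrarp, another Notch target, held 0 such motifs. A match of letters is a description and not a bound site.

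The Hes5 UMIs came from 10 of 36 and 5 of 51 cells, with highest cells of 22 and 40 UMIs. Of these 15 cells 13 also held an Atoh1 UMI, as did 55 of all 87 7-marker cells of Coch + Tmx P33. In the cells with 5 or more markers, Hes5 was at 393 CPM in replicate 1 and at 0 in replicate 2, which had 7 such cells. In all other kept cells it was at 9.99 and 18.1 CPM in Coch + Tmx P33, and at 0 to 1.38 CPM in the other 6 libraries. The call was lost in 10 of 19 alternatives, with a log2 fold change of 4.79 to 5.59 in all: the adjusted p was 0.802 with at least 4 markers, 0.407 without replicate 2 of Coch + Tmx P26 and 0.405 without replicate 1 of Coch + Tmx P33. It was between 0.0779 and 0.125 without any other single library except Coch P33, and 0.0824 without both Coch P33 and replicate 3 of Coch + Tmx P26.

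Other genes of the Notch list were less uniform. Of 20 tested, 1 was called, 3 were higher in both libraries of Coch + Tmx P33 than in all of Coch + Tmx P26, and the median log2 fold change was 0.43, where 11.0% of all genes tested were higher without overlap and the median was -0.06. Nrarp, a feedback inhibitor of Notch singled out after its values were seen, was at 143 and 78.8 CPM against 18.8, 19.3 and 21.0 CPM (log2 fold change 2.45, edgeR adjusted p = 0.978). Jag1 was at 240 and 113 CPM against 51.1, 81.1 and 138 CPM, and Lfng, which glycosylates Notch receptors, at 218 and 163 against 196, 178 and 110 CPM, both with overlap. Hes1 was at 389 and 599 against 282, 483 and 298 CPM (0.51, adjusted p = 0.978).

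Keratins were also high in Coch + Tmx P33 without passing the test. Krt8, a keratin gene of simple epithelia named after its values were seen, was at 627 and 338 CPM against 159, 42.5 and 44.9 CPM, and its partner Krt18 at 850 and 421 against 159, 85.0 and 127 CPM. The libraries of both ages were apart for each. Of 17 actin and intermediate filament genes tested edgeR called 0 (6 at an unadjusted p under 0.05) and DESeq2 2. Over all genes tested 4.31% had such a p by edgeR. Neuron and Schwann cell genes were at 264 and 1173 CPM in sum in Coch + Tmx P33 and at 2566, 3164 and 701 CPM in Coch + Tmx P26, and their part in these values was not tested. Stromal genes summed to 257 and 374 CPM in Coch + Tmx P33 and to 239, 263 and 1040 CPM in Coch + Tmx P26, and all 7 tested had a log2 fold change below 0 (median -2.23; edgeR called 0, with 2 at an unadjusted p under 0.05, and DESeq2 1). The 4 hemoglobin genes summed to 1276 and 1577 against 2954, 1882 and 11708 CPM, and all 4 had a log2 fold change below 0 (median -2.17; edgeR called 0, with 2 at an unadjusted p under 0.05, and DESeq2 0). The part of either list in the keratin values was not tested.

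**Figure D4:**
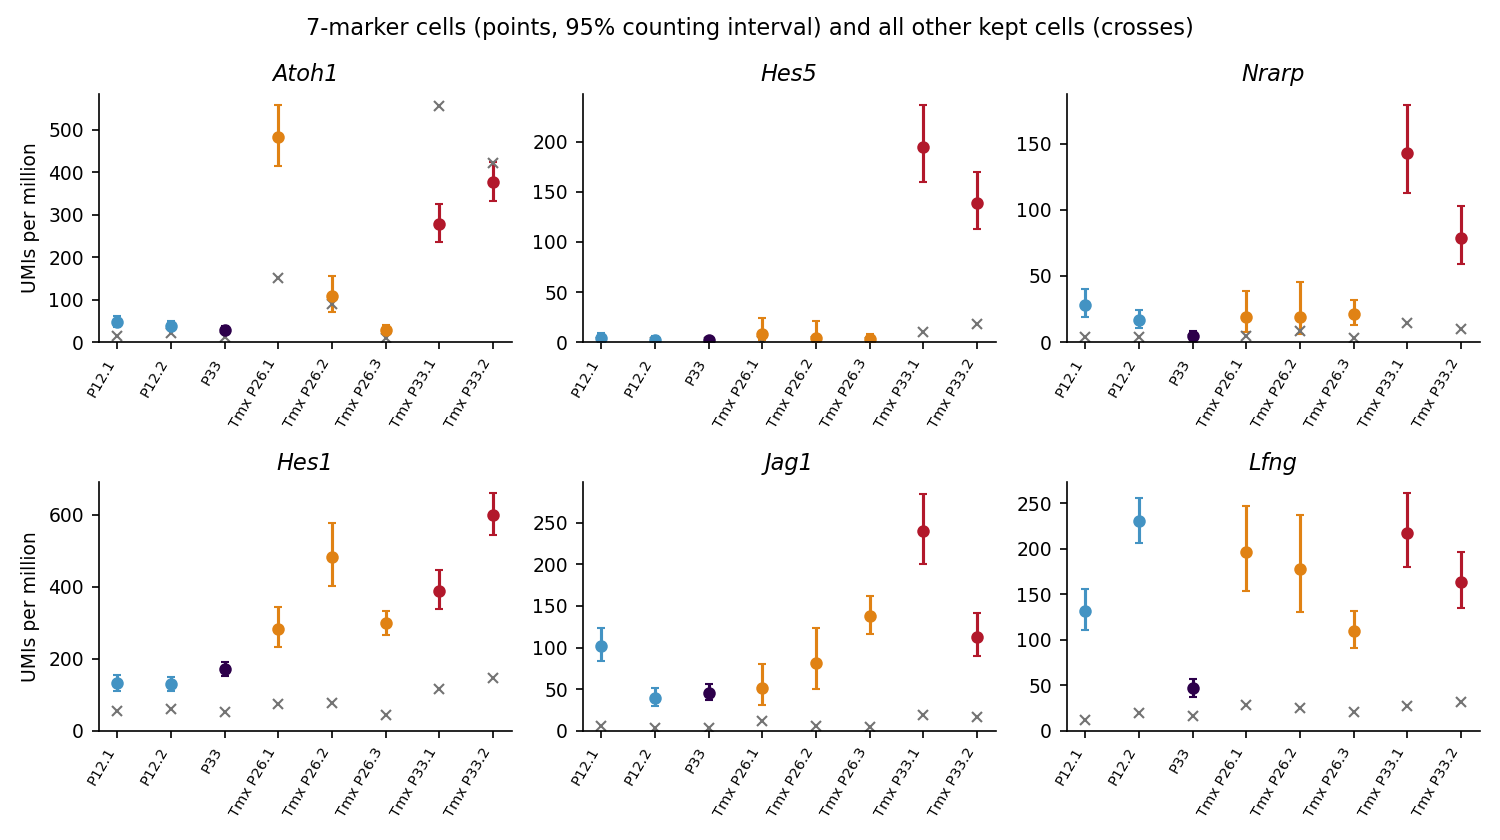
Level in UMIs per 1000000 (y axis) of Atoh1 and 5 Notch pathway genes in each library (x axis; replicate number after the point), in 7-marker cells (points, coloured by group, with 95% Poisson intervals that cover counting error only) and in all other kept cells (crosses). Hes5 stands at 195 and 139 CPM in Coch + Tmx P33 and at no more than 8.07 CPM elsewhere, and Atoh1 is low, at 28.7 CPM, in the third library labelled Coch + Tmx P26.

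At P33, induced and uninduced mice could be compared at 1 age, with 2 libraries, shared with the comparison above, against 1. By edgeR 0 genes were called (0.0%), while 1077 had an unadjusted p under 0.05 and DESeq2 called 75, of which 43 were higher in Coch + Tmx P33. Without replicate 3 of Coch + Tmx P26 edgeR called 14 of 10060 genes tested. That library is in neither group compared, but it enters the filter on low counts, the scaling and the estimate of spread. Hes5 was at 195 and 139 against 2.04 CPM (log2 fold change 6.25, SE 0.70, edgeR adjusted p = 0.152). Sox2 was at 352 and 222 against 50.0 CPM (2.51, adjusted p = 0.362), Hes1 at 389 and 599 against 171 CPM (1.51, adjusted p = 0.362) and Fgfr3 at 208 and 205 against 68.4 CPM (1.58, adjusted p = 0.469).

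Of the 12 SC markers outside the rule 11 were higher in both libraries of Coch + Tmx P33 than in Coch P33, and 5 had an unadjusted p under 0.05 by edgeR. Of 20 Notch genes 16 were higher and 8 had such a p. Over all genes tested 35.9% were higher in this way, and 9.93% had such a p in either direction. The genes of other cells moved too. All 4 hemoglobin genes, all 7 neuron and Schwann cell genes and 6 of 7 stromal genes were lower in both libraries of Coch + Tmx P33, with median log2 fold changes of -5.20, -2.10 and -3.75, and 39.2% of all genes tested were lower in this way. In sum the neuron and Schwann cell genes were at 264 and 1173 CPM against 3049 CPM, and the stromal genes at 257 and 374 CPM against 1403 CPM. Their part in the SC values was not tested. Hair cell genes gave 11 of 14 tested higher, with a median log2 fold change of 2.07. The sum over all 29 genes of that list was lower, at 1938 and 3253 CPM against 3789 CPM in Coch P33. That sum also holds Pou4f3 and Ocm, which the rule limits, and genes that were not tested. In Coch P33 29.5% of cells held 1 or 2 Ocm UMIs, against 2.78% and 1.96% in Coch + Tmx P33.

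The other genes fixed for description were not called in any comparison. Sox9 was at 131 to 270 CPM in the 8 libraries, Rorb at 104 to 243 CPM, Gjb6 at 436 to 939 CPM and Gjb2 at 315 to 1121 CPM. Prox1 was at 11.5 to 78.0 CPM, and Cdkn1b, the cell cycle inhibitor that keeps SCs from dividing, was at 487 CPM in replicate 1 of Coch P12 and at 105 to 201 CPM in the other 7 libraries. Hes6, a repressor gene active in new hair cells, was at 404, 0 and 17.2 CPM in Coch + Tmx P26 and at 140 and 112 CPM in Coch + Tmx P33, against 5.57 to 19.9 CPM in the uninduced libraries, so that 3 of the 5 induced libraries lay above them.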

How the data were processed

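Cells of 8 organ of Corti libraries (Chromium 3' v2 kit, per the labels) were counted by the authors with Cell Ranger against mm10 (version not given in the sources used here). The deposited values are raw UMI counts per gene and barcode for 27998 genes. Barcodes were filtered and picked as described above (python 3.11.15, scanpy 1.11.5), with no doublet removal (3 of the 422 cells were among the highest scrublet scores). Counts of these cells were summed per library (7403039 UMIs in all) and tested with edgeR 4.0.16 (R 4.3.3; TMM, filterByExpr, quasi-likelihood, Benjamini-Hochberg), with DESeq2 1.42.0 as an alternative; the code was tested on simulated data. CPM are UMIs per 1000000 UMIs of the summed cells. The members and gene lists were chosen with earlier results of these data known. Named genes were the rule's genes, up to 10 rises and 10 falls per comparison, called genes of 19 lists and 12 fixed genes; others are said to be named afterwards. Gene positions and promoter sequences are from RefSeq tables of GRCm38.p6, the assembly called mm10.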

Additional observations from a re-analysis of the deposited data

Results flagged for a closer look

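In 7-marker cells 23 sets of values were tested for a library far from the others: the 20 called genes over the 6 later libraries, and Atoh1, Hes5 and the share of kept cells over the 5 induced libraries. Of these 4 had one, all of them called genes. Chance gives about 1 in 20 only for normally distributed values, which CPM from few UMIs need not be. Klk8 was at 9.56 CPM in Coch + Tmx P26 replicate 3, far above the other 5. Rsph1 was at 24.2 CPM in Coch + Tmx P26 replicate 1. Col15a1 was at 7.66 CPM in Coch P33. Wisp1 was at 50.2 CPM in Coch + Tmx P26 replicate 2. All 4 values stayed below both Coch P12 libraries.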

How the results depend on the processing

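The alternatives chosen after seeing the data were leaving out hemoglobin genes, and leaving out both Coch + Tmx P26 replicate 3 and Coch P33. For the later ages against Coch P12 (20 genes) the count was 61 with DESeq2 (12 higher and 49 lower), 503 with no filter on low counts (150 and 353), 10 with at least 4 markers, 130 without the pair of libraries (33 and 97), and 1 to 68 leaving out 1 library. All 20 genes were among those called with DESeq2, with no filter and without the pair. For Coch + Tmx P33 against Coch P33 (0) it was 75 with DESeq2, 734 with no filter and 0 to 14 leaving out 1 library, the 14 being without Coch + Tmx P26 replicate 3. For Coch + Tmx P33 against Coch + Tmx P26 (1, Hes5) it was 7 with DESeq2, 124 with no filter, 0 with at least 4 markers, 0 without the pair, and 0 to 1 leaving out 1 library. For Coch P33 against Coch P12 (1, Col9a1) it was 20 with DESeq2, 329 with no filter, 0 with at least 4 markers, 0 with mitochondrial UMIs under 10%, and 0 to 4 leaving out 1 library. The cause of these shifts was not tested. The Atoh1 difference was 1.81 to 2.82 leaving out 1 library (p = 0.0571 to 0.286, exact permutation test) and 2.64 without the pair (p = 0.133), but with so few libraries none of these tests could reach 0.05, the smallest possible p being 0.0571 to 0.133. In the other alternatives it was 1.99 to 2.76 (exact permutation p = 0.107 to 0.143). Over single genes and alternatives 1049 values kept direction and side of the threshold, 15 came to pass it, 135 no longer passed and 37 changed sign, none of them called in either fit.

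The log2 fold changes that changed sign were as follows, and the cause was not tested. For the later ages against Coch P12, Prox1 was -0.049 with at least 4 markers and Sox9 -0.041 with mitochondrial UMIs under 10%, and leaving out 1 library gave -0.27 to 0.94 for Sox2, -0.48 to 0.025 for Rorb and -1.65 to 0.21 for Cdkn1b. For Coch + Tmx P33 against Coch + Tmx P26, Prox1 was -0.040 with DESeq2, -0.0049 with RLE size factors, -0.25 with mitochondrial UMIs under 10%, -0.52 without the pair and -0.49 to 0.88 leaving out 1 library. Cdkn1b was -0.060 with at least 4 markers, -0.030 with mitochondrial UMIs under 10% and -0.16 to 0.26 leaving out 1 library. Without the pair Gjb2 was -0.16 and Gjb6 0.16, and leaving out 1 library gave -0.36 to 0.41 for Gjb2, -0.37 to 0.19 for Gjb6, -0.059 to 0.71 for Sox2 and -0.64 to 3.26 for Hes6. For Coch P33 against Coch P12, Hes5 was 0.26 and Rorb 0.41 with at least 4 markers and Rorb 0.16 with mitochondrial UMIs under 10%, and leaving out 1 library gave -0.71 to 0.023 for Hes5, -0.36 to 0.13 for Rorb, -0.035 to 0.79 for Fgfr3 and -0.92 to 0.97 for Hes6.

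With the replicate number as a block, on the 7 libraries whose label gives one, 152 genes were called for the later ages against Coch P12 (42 higher and 110 lower, all 20 among them) and 0 for Coch + Tmx P33 against Coch + Tmx P26 (Hes5 adjusted p = 0.0549), where the log2 fold change of Prox1 was -0.45, of Gjb2 -0.10 and of Gjb6 0.19. Deviations of same-numbered libraries from their group mean correlated at -0.13 to 0.14. In a group of 2 libraries these deviations mirror each other, so the check cannot decide whether the numbers pair libraries. The main fit was made without the block. No paired fit was possible against Coch P33, whose label gives no number.

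Depth limits the small groups most: Coch + Tmx P26 replicate 2 has 24 of these cells and 258811 UMIs, where 1 UMI is 3.86 CPM.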
